A study of Drosophila melanogaster with 159 samples.

Results

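Embryos of the fruit fly Drosophila melanogaster collected at 2.5-4 h after egg laying were compared with embryos of 0-1.5 h, using the 8 arrays of these collections among the 159 arrays of a life-cycle series. The members were chosen by the collection time in the array title. The early window held 2 arrays of 0-1 h embryos and 2 of 0.5-1.5 h embryos, and the late window held 2 arrays of 2.5-3.5 h embryos and 2 of 3-4 h embryos. All were wild-type Canton S raised at 25 °C, laid by mothers given 1 h to do so and staged by their morphology, with no other treatment or allele named. Adult wild-type flies and flies that the titles call tudor are used only for a description at the end. Each spotted cDNA array set RNA of whole embryos against a reference RNA, and a value is the log2 ratio of sample to reference after the median of the array was subtracted, so a level is relative to the reference and levels of different genes cannot be ranked. In such bulk RNA, fewer cells of a type and less RNA per cell cannot be told apart. The protocol text names poly(A)+ RNA whereas the molecule label reads total RNA. If poly(A)+ RNA was hybridised, a longer poly(A) tail and a more abundant transcript cannot be told apart either.

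A fly egg is loaded by its mother with RNA and protein that drive the first rapid nuclear divisions with almost no transcription of the embryo's own genome. As the divisions slow, the nuclei at the egg surface are enclosed by membranes in a step called cellularisation, the zygotic genome is switched on broadly by factors such as Zelda, and much of the maternal RNA is destroyed by RNA-binding proteins such as Smaug together with deadenylases and, later, zygotic microRNAs. Segmentation and dorsoventral patterning genes are among the first zygotic transcripts, and genes of egg formation and germ plasm are a classical source of maternal RNA. The collections of 0-1.5 h precede most of this transition and those of 2.5-4 h span and follow cellularisation.

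Arrays resembled each other within a window more than between windows. Across probes, the 6 pairs of early arrays correlated at 0.935 to 0.98, the 6 pairs of late arrays at 0.906 to 0.983 and the 16 pairs across windows at 0.705 to 0.83, although probes are not independent measurements. An array gave between 7807 and 8048 values for 12588 probes. Slides carried numbers of 2 forms, 300xx (the first array of 0-1 h, 0.5-1.5 h and 3-4 h) and 700ii (the other 5), and the form was a term in the model. The early arrays lay on 2 slides and the late arrays on 4 others, so slide and window cannot be told apart. Treating the slide as a random block left 3906 probes called. That block allows for correlation within a slide (0.423), which only the early slides could show, and does not separate slide from window. The scan comments name the sample dye on 3 of the 8 arrays, which are those of form 300xx. For the others the direction of sample over reference was taken as likely. Nothing in the labels tells if the replicates were separate egg collections. The p-values therefore rest on array-to-array spread that may be technical, and the small number of arrays limits the precision of each value.

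After median centring, most of the tested probes differed between the windows. Of 7028 probes tested, 4420 passed limma's test at an adjusted p under 0.05 (62.9%), 3135 of them higher at 2.5-4 h (44.6%) and 1285 lower (18.3%). At least a 2-fold change was seen for 1109 risen and 662 fallen probes, of which 434 and 308 carried a single gene name. The number called depended on the scaling of the arrays, falling to 3847 with quantile normalization and to 3005 without centring, less than a majority. The split between risen and fallen probes depended on it too. After median centring the median difference over all tested probes was 0.38 on the log2 scale, and 70.9% of the called probes were higher. Without centring the median difference was -0.10 and 992 probes were higher against 2013 lower, so that 33% of the called probes were higher. Quantile normalization gave 2176 higher and 1671 lower (56.6% higher), centring on the array mean gave 1973 and 1730 (53.3%), and centring on the median deviation from the probe means gave 1679 and 1890 (47%). Before centring, the medians of the early arrays were 0.224 to 0.73 and those of the late arrays -0.182 to 0.038. In all 5 scalings, 905 probes were higher (12.9%) and 1284 lower (18.3%). At 2-fold or more, the other scalings gave 335 to 555 risen and 838 to 1190 fallen probes, so that balance turned too. The classes of 1109 risen and 662 fallen probes used below are those of median centring alone. A difference given below is that of the median-centred values, to be read against 0.38, and a gene is said to change in all 5 scalings where each of them called it in the same direction.

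**Figure D1:**
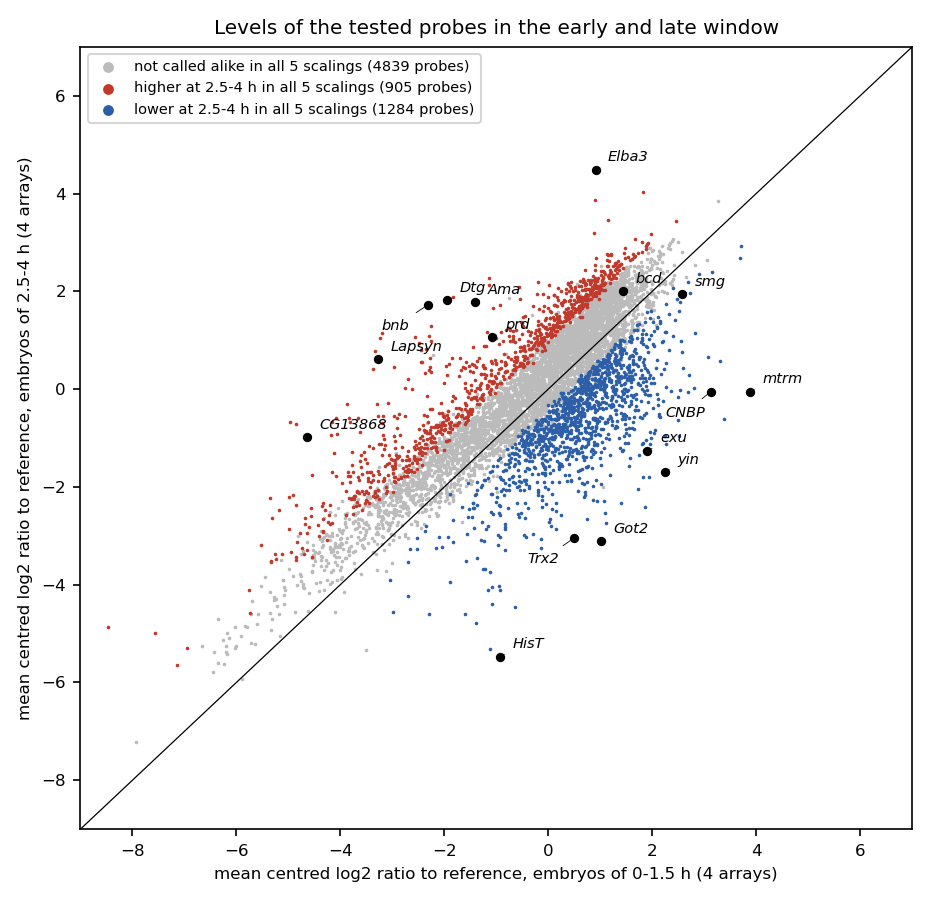
Mean centred log2 ratio of each tested probe in embryos of 2.5-4 h (vertical) against embryos of 0-1.5 h (horizontal), 4 arrays each, with the line of equal values. The 905 probes higher in all 5 scalings (red) and the 1284 lower in all 5 (blue) lie on either side of a grey band that lies mostly above the line, and Elba3 and HisT are among the farthest from it.

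Among the genes that rose most were Dtg, Elba3, Ama and trn. The 12 largest increases among singly named genes ran from 3.04 to 4.03 on the log2 scale, all 12 held in all 5 scalings, and in none did the early and late arrays overlap. These genes were chosen by the size of their change on the same arrays, so neither point is further support. The bnb transcript stood at -3.07 and -2.98 at 0-1 h, at -1.85 and -1.40 at 0.5-1.5 h, at 1.49 and 1.44 at 2.5-3.5 h and at 1.90 and 2.05 at 3-4 h. Its late mean of 1.72 ± 0.30 (SD, n = 4) exceeded its early mean of -2.32 ± 0.83 (SD, n = 4) by 4.03 ± 0.38 (SE), a 16.3-fold change (limma, adjusted p = 3.55e-05), and both 0.5-1.5 h arrays lay above both 0-1 h arrays. Lapsyn, a leucine-rich repeat membrane protein known from synapses, was read at -3.53 and -3.55 at 0-1 h, -3.40 and -2.58 at 0.5-1.5 h, 0.19 and 0.29 at 2.5-3.5 h and 1.06 and 0.90 at 3-4 h (difference 3.88 ± 0.29, SE, adjusted p = 1.01e-05). Both late collections were above every early array, and both 3-4 h arrays above both 2.5-3.5 h arrays. Dtg, a target gene of the Dpp morphogen, moved from between -2.73 and -1.23 on the early arrays to between 1.55 and 2.16 on the late ones (3.78 ± 0.35, SE).

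Elba3 traced a different course. It encodes a subunit of ELBA, a complex that acts on chromatin boundary elements of the bithorax complex in the early embryo. Its transcript stood at 1.16 and 0.77 at 0-1 h and 0.76 and 0.95 at 0.5-1.5 h, rose to 5.17 and 5.06 at 2.5-3.5 h and stood at 3.95 and 3.80 at 3-4 h (difference 3.52 ± 0.32, SE, adjusted p = 2.9e-05). Both 2.5-3.5 h arrays lay above both 3-4 h arrays, an order that among the 12 only CG13868 shared. Ama, a secreted immunoglobulin-domain adhesion protein that binds Neurotactin, went from -2.11 and -1.96 at 0-1 h and -1.0 and -0.58 at 0.5-1.5 h to between 1.44 and 2.10 on the late arrays (3.20 ± 0.35, SE). Among leucine-rich repeat receptors of the segmented ectoderm, trn (tartan) rose by 3.06 ± 0.25 (SE) and 18w (Toll-2) by 3.04 ± 0.32 (SE). For trn the late arrays read -0.28 and -0.31 at 2.5-3.5 h and 0.94 and 0.51 at 3-4 h, and for 18w -0.01 and -0.06, then 1.29 and 0.96, so the 3-4 h arrays were the higher for both. Oatp74D, an organic anion transporter that imports ecdysone, rose by 3.12 ± 0.40 (SE) with the same order in the late window, from -1.61 and -1.52 to -0.20 and -0.34. The other 4 of the 12, known only by gene number, were CG2145 (3.80), CG5888 (3.71), CG4702 (3.6) and CG13868 (3.58). CG13868 stood at -5.24 to -4.0 on the early arrays and at -1.09 to -0.88 on the late ones.

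**Figure D2:**
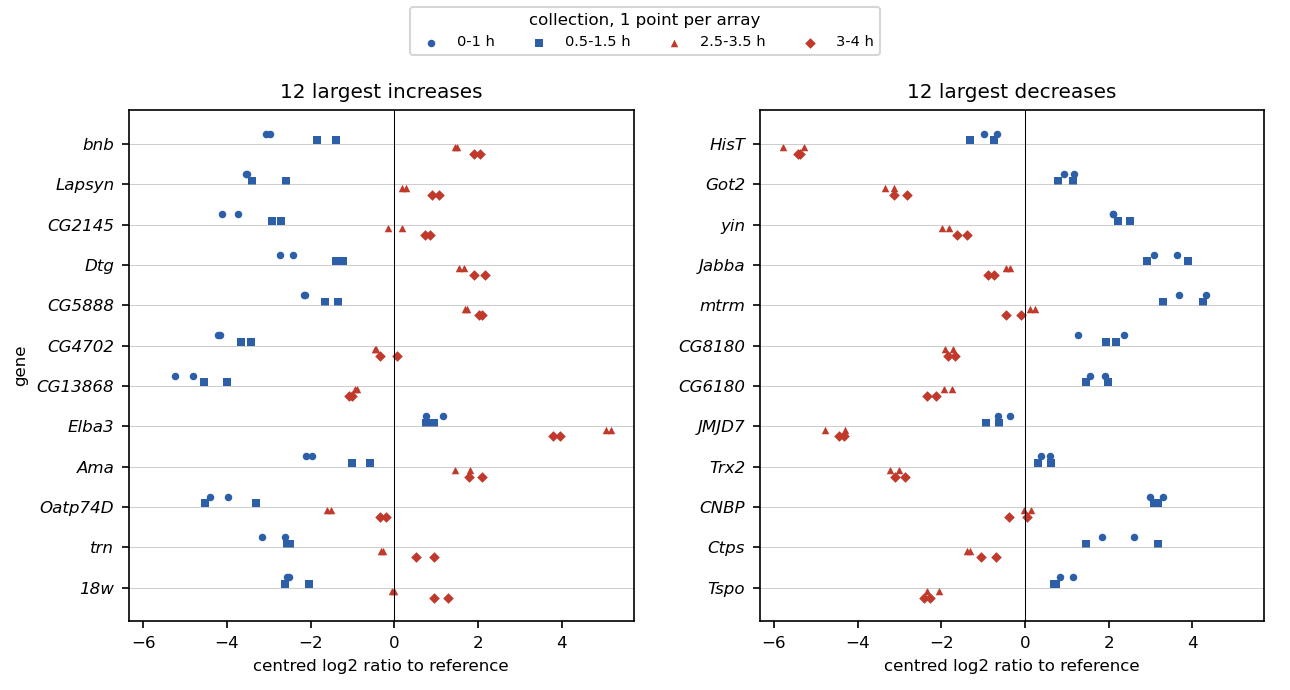
Centred log2 ratio to reference (horizontal) on each of the 8 arrays for the 12 genes with the largest increases (left) and the 12 with the largest decreases (right), 1 point per array, blue for 0-1 h and 0.5-1.5 h and red for 2.5-3.5 h and 3-4 h. Blue and red points do not overlap for any of the 24 genes, which were chosen by the size of this difference. The 2 highest points of Elba3, at 5.17 and 5.06, are its 2.5-3.5 h arrays.

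Among the genes that fell most were HisT, Got2, mtrm and CNBP. The 12 largest decreases ran from -3.14 to -4.46, all 12 held in all 5 scalings, and again no early and late arrays overlapped. Both points follow from the choice of the genes by size, as for the increases. HisT (CG1358) had the largest, with readings of -0.67 and -0.98 at 0-1 h, -0.75 and -1.32 at 0.5-1.5 h, -5.79 and -5.27 at 2.5-3.5 h and -5.38 and -5.42 at 3-4 h. Its mean fell from -0.93 ± 0.29 (SD, n = 4) to -5.47 ± 0.23 (SD, n = 4), a difference of -4.46 ± 0.17 (SE) and a 22.0-fold change (limma, adjusted p = 9.37e-07). All 4 late arrays lay far below the early ones, and the 2 late collections overlapped. Got2, the mitochondrial aspartate aminotransferase, went from between 0.78 and 1.17 to between -3.35 and -2.81 (-4.06 ± 0.15, SE). Trx2, a thioredoxin, went from 0.38, 0.61, 0.63 and 0.32 on the early arrays to -3.22, -3.02, -2.86 and -3.10 on the late ones (-3.51 ± 0.14, SE). JMJD7, of the Jumonji-domain oxygenases, fell by 3.76 ± 0.16 (SE) on the log2 scale, and Tspo, an outer mitochondrial membrane protein, changed by -3.14 ± 0.16 (SE). Ctps, which makes CTP for nucleic acid and lipid synthesis, had the widest early spread of the 12, with 2.60 and 3.19 on the 300xx arrays and 1.85 and 1.45 on the 700ii arrays, and -1.38 to -0.70 late (-3.15 ± 0.21, SE). A second probe of Ctps did not move with it (0.58, adjusted p = 0.10), so its decrease rests on 1 of 2 probes.

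The other transcripts among the 12 stood above the reference on the early arrays, as Got2, Trx2, Tspo and Ctps did. The mtrm transcript, whose product Matrimony holds the kinase Polo inactive in female meiosis, stood at 4.33 and 3.68 at 0-1 h and 4.26 and 3.31 at 0.5-1.5 h, and at 0.11, 0.23, -0.44 and -0.09 on the late arrays (-3.88 ± 0.25, SE, adjusted p = 5.64e-06). Jabba, which anchors maternal histones to lipid droplets, fell from between 2.92 and 3.90 to between -0.87 and -0.35 (-3.90 ± 0.22, SE). For both genes the 300xx arrays read above the 700ii arrays within the early window. Among the late arrays the 300xx array was the lowest for mtrm (-0.44) and within the 700ii range for Jabba (-0.75). The form term, shared by both windows, therefore takes up at most part of the early difference. CNBP, a zinc-knuckle nucleic acid binding protein, had the 300xx arrays slightly below the 700ii arrays, with early values of 2.98, 3.3, 3.08 and 3.17 and late values of -0.03, 0.15, -0.37 and 0.05 (-3.26 ± 0.13, SE). The yin gene, an oligopeptide transporter, fell by 3.90 ± 0.17 (SE) on the log2 scale. CG8180 (-3.83 ± 0.20, SE) and CG6180 (-3.81 ± 0.19, SE) completed the 12.

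Early zygotic patterning genes were mostly higher at 2.5-4 h. Of 106 listed genes 22 had a singly named probe, 21 of these passed the filter on missing values, 16 rose, 0 fell and 5 did not pass, and the median difference was 1.41 against 0.38 over all tested probes. Counts of list members here and below use 1 probe per gene and are to be read against the 44.6% higher and 18.3% lower of all tested probes. The lists were chosen with earlier results of these data known, and trn and 18w count both here and among the 12 largest increases. The level of the list, taken as its median on each array, was -1.19 to -0.92 early and -0.07 to 0.37 late. In all 5 scalings 12 of the 16 were higher, the exceptions being cad, tkv, disco and peb. Among the transcription factors, the pair-rule gene prd read -0.72 and -1.55 at 0-1 h, -0.68 and -1.39 at 0.5-1.5 h, 0.85 and 0.49 at 2.5-3.5 h and 1.48 and 1.40 at 3-4 h (2.31 ± 0.20, SE, adjusted p = 2.11e-05). Every late array was above every early one, and within the late window 3-4 h was the higher. The GATA factors srp and pnr, which act in mesoderm, blood and dorsal ectoderm, rose by 1.59 ± 0.19 and 1.41 ± 0.21 (SE), and the amnioserosa and dorsal ectoderm factor tup by 1.60 ± 0.23 (SE). For tup the early arrays read -2.59 to -2.14, the 2.5-3.5 h arrays -1.34 and -1.39 and the 3-4 h arrays -0.29 and -0.51, so both 3-4 h arrays were the higher. The zinc-finger gene noc rose by 1.46 ± 0.20 (SE), and knrl, a relative of the gap gene knirps, by 1.27 ± 0.18 (SE), with 1 late value missing.

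Signalling and surface members of the list rose as well. neur, the ubiquitin ligase that activates the Notch ligand Delta, stood at 0.25 to 0.91 on the early arrays and 1.91 to 2.41 on the late ones (1.67 ± 0.15, SE), with no overlap. nrv2, a beta subunit of the Na,K-ATPase, moved from -5.62 and -4.79 at 0-1 h and -4.80 and -4.73 at 0.5-1.5 h to between -2.55 and -1.73 (2.79 ± 0.25, SE). ImpL2, a secreted antagonist of insulin signalling, rose by 2.77 ± 0.33 (SE) and the cytochrome P450 gene Cyp310a1 by 1.79 ± 0.17 (SE). The Dpp receptor tkv rose by 1.02 ± 0.21 (SE) and cad, whose RNA is both maternal and zygotic, by 0.87 ± 0.14 (SE), but without centring neither passed. disco (0.76 ± 0.19, SE) behaved likewise, and peb (0.43 ± 0.13, SE) turned to -0.055 without centring. The peb call also ended without the second 0-1 h array (adjusted p = 0.0625) or the first 3-4 h array (0.108). The 5 that did not pass were E(spl)mbeta-HLH (0.49), Antp (0.30), SoxN (0.06), ken (-0.28) and Mes2 (-0.53). A second probe of Mes2 passed as lower (-1.21, adjusted p = 0.00017), and a second probe of cad did not pass (0.25, adjusted p = 0.18). E(spl)mbeta-HLH, a Notch target, was at -1.42 and -1.19 at 2.5-3.5 h, near its early values of -1.52 to -1.29, and at -0.42 and -0.89 at 3-4 h, and it passed without the first 2.5-3.5 h array (0.61, adjusted p = 0.0295). SoxN was above its early range at 2.5-3.5 h (1.15 and 1.19) and below it at 3-4 h (0.14 and 0.27). Mes2 and ken passed as lower without the first 3-4 h array (-0.97 and -0.58, adjusted p = 0.00539 and 0.0404) and without centring (-1.02 and -0.76, adjusted p = 0.00138 and 0.0118), as did Mes2 without the first 0.5-1.5 h array (-0.66, adjusted p = 0.0455).

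Genes of cellularisation and of the blastoderm epithelium moved both ways. Of 15 with a probe 14 were tested, 7 were higher and 5 lower, where 44.6% and 18.3% of all tested probes were, and the median of 0.29 was near the 0.38 of all probes. Those higher in all 5 scalings were Ama and alpha-Cat, the adherens junction protein that links cadherin complexes to actin. alpha-Cat stood at -0.20, -0.19, -0.85 and 0.05 on the early arrays and 1.71, 1.62, 1.72 and 1.79 on the late ones (1.94 ± 0.18, SE, adjusted p = 3.39e-05). The septin genes Septin4 (0.77) and Septin5 (0.84) and the polarity gene scrib (0.84) passed after centring but not without it. The contractile ring protein anillin (scra, 0.50) and the septate junction scaffold dlg1 (0.31) passed narrowly, with adjusted p of 0.0202 and 0.0464. Neither passed without centring, and leaving out 1 array ended the call of scra in 2 cases (second 0-1 h array, adjusted p = 0.0954, and second 0.5-1.5 h array, 0.057) and that of dlg1 in 7 of 8, all but the second 3-4 h array (0.0587 to 0.135). A second probe of dlg1 did not pass (0.06, adjusted p = 0.75). The 5 lower genes were lower in all 5 scalings. They were the Golgi protein of cellularisation lva (-0.84 ± 0.20, SE), the actin nucleation regulator SCAR (-0.92 ± 0.18, SE), the dynein heavy chain Dhc64C (-0.97 ± 0.31, SE), par-6 (-0.52 ± 0.15, SE) and fog (-0.47 ± 0.13, SE), the secreted signal of gastrulation. SCAR went from 0.02 to 0.22 early to -1.12 to -0.42 late. The early and late arrays of Dhc64C overlapped, and its call ended without the second 0-1 h array (adjusted p = 0.0916) or the second 0.5-1.5 h array (0.0645). The call of par-6 ended without the second 0.5-1.5 h array (0.0657). Abi (0.27) and the spectrin gene kst (0.13) did not pass, and Abi passed without the second 3-4 h array (0.40, adjusted p = 0.0441).

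The cell cycle brakes and checkpoint genes had 3 tested members, with a median of 0.21. The cyclin A inhibitor rux rose by 0.65 ± 0.16 (SE), from -1.01 to -0.57 on the early arrays to -0.29 to 0.01 on the late ones, and did not pass without centring. The checkpoint kinase lok (0.21) and mus304 (-0.12) did not pass, although mus304 passed as lower without centring (-0.61, adjusted p = 0.0488).

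Genes of germ plasm and of maternal RNA control were mostly lower at 2.5-4 h. All 19 with a probe were tested, 12 fell, 3 were higher and 4 did not pass, and the median was -0.87. The 12 that fell did so in all 5 scalings. The median level of the list was 1.22 to 1.62 on the early arrays and 0.05 to 0.23 on the late ones. exu, needed to localise bicoid RNA in the oocyte, stood at 1.95, 1.72, 2.07 and 1.91 early and at -1.09, -1.14, -0.98 and -1.84 late (-3.11 ± 0.19, SE, adjusted p = 4.03e-06). Pxt, a cyclooxygenase-like enzyme of egg formation, stood at 3.20 to 3.41 early, at 0.75 and 1.10 at 2.5-3.5 h and at 0.24 on both 3-4 h arrays (-2.76 ± 0.20, SE). swa (swallow), which also acts on bicoid RNA, fell by 1.78 ± 0.21 (SE) on the log2 scale, with 1.30 and 1.64 at 2.5-3.5 h and 0.25 and 0.74 at 3-4 h. cort, a meiotic activator of the anaphase-promoting complex, fell by 1.84 ± 0.18 (SE), and the cap-binding protein eIF4E1 by 1.80 ± 0.16 (SE). Fmr1, an RNA-binding translational regulator, went from 0.87 to 1.22 early to -0.85 to -0.46 late (-1.57 ± 0.14, SE). mtrm, CNBP and Hsp27 (-2.68 ± 0.35, SE) are also counted in this list. del, a nuclear piRNA pathway protein, fell by 0.87 ± 0.16 (SE). The translational repressor brat (-0.52 ± 0.15, SE) and orb2 (-0.72 ± 0.22, SE) fell least, and without the second 0.5-1.5 h array neither passed (adjusted p = 0.0676 and 0.0578). Of the other probes of orb2, one passed (-0.76, adjusted p = 0.0017) and one did not (-0.12, adjusted p = 0.51).

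Other maternal regulators differed from these. smg encodes Smaug, the protein that recruits the deadenylation machinery to maternal RNA. Its own transcript stood at 2.68 and 2.58 at 0-1 h, 2.42 and 2.66 at 0.5-1.5 h, 2.61 and 2.59 at 2.5-3.5 h and 1.25 and 1.30 at 3-4 h. The 2.5-3.5 h arrays thus lay within the early range and the 3-4 h arrays below it, and the difference between windows of -0.75 ± 0.31 (SE) did not pass (adjusted p = 0.0583), although it did without the first or the second 2.5-3.5 h array (-0.92 in both cases, adjusted p = 0.0282 and 0.0274). smg was lower past the threshold in each of the other 4 scalings, by -1.02 to -1.24 (adjusted p = 0.00602 to 0.0202). The probe of the anterior determinant bcd was higher by 0.54 ± 0.18 (SE), with 2.27 and 2.18 at 2.5-3.5 h against 1.22 to 1.62 early and 1.82 and 1.73 at 3-4 h. It still read 1.66 ± 0.16 (SD, n = 4) at 5-6.5 h. In the adults described at the end, its difference was -0.06 for females minus males and 0.33 for tudor minus wild-type females. Whether this probe reads bcd RNA alone was not tested. bcd did not pass without centring, with the slide as a random block, without the second 0.5-1.5 h array (adjusted p = 0.107) or without the first or second 2.5-3.5 h array (0.0582 and 0.055). Hrb27C (0.39 ± 0.13, SE) and ovo (0.59 ± 0.21, SE) were, like bcd, higher only after median centring. The Hrb27C call ended without either second early array (0.0874 and 0.0916) or either 2.5-3.5 h array (0.057 and 0.0717), and the ovo call without any array but the first of 2.5-3.5 h (0.0524 to 0.103). orb (0.18), tapas (0.01) and fs(1)Ya (0.47) did not pass, and fs(1)Ya passed as higher without the first or second 3-4 h array (0.74 and 0.59, adjusted p = 0.0296 and 0.0448).

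**Figure D3:**
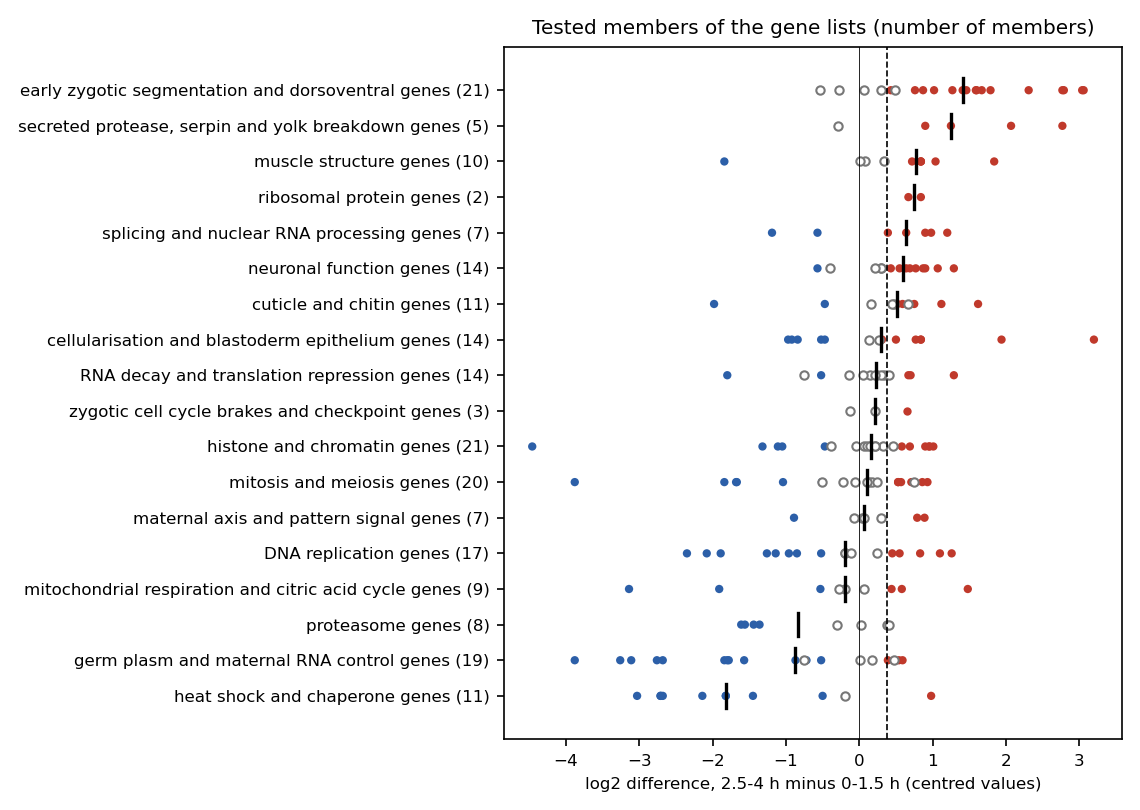
Log2 difference, 2.5-4 h minus 0-1.5 h, of each tested member of 18 gene lists, with the number of members in brackets. Red and blue points passed the test as higher or lower, open points did not, the black bar is the list median and the dashed line the median of all tested probes at 0.38. Early zygotic genes have the highest median (1.41), heat shock and chaperone genes the lowest (-1.82), and the germ plasm list spans -3.88 to 0.59.

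Chaperone genes fell together. Of 11 tested, 9 fell, all 9 in all 5 scalings, 1 rose and 1 did not pass, with a median of -1.82, whereas 18.3% of all tested probes fell. Of the CCT chaperonin, which folds actin and tubulin, CCT7 fell by 2.14 ± 0.14 (SE) and CCT2 by 1.82 ± 0.17 (SE) on the log2 scale. CCT7 read 1.13 to 1.51 early and -0.96 to -0.54 late. The prolyl isomerase Fkbp59 had the largest fall of the list, from 2.16, 2.07, 1.87 and 1.71 to -0.86, -1.24, -0.97 and -1.39 (-3.03 ± 0.17, SE, adjusted p = 2.97e-06). The cyclophilin Cyp1 fell by 2.71 ± 0.23 (SE). Hsp27, a small heat shock protein made in the ovary, stood at 1.22 to 1.89 early, at -0.70 and -0.21 at 2.5-3.5 h and at -1.81 and -1.66 at 3-4 h. The nuclear prolyl isomerase Fkbp39, named after its value was seen as the single exception, was higher by 0.98.

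Some proteasome genes fell. Of 8 tested, 4 fell in all 5 scalings and 4 did not pass (median -0.83). The 4 that fell encode parts of the regulatory particle, which binds and unfolds substrates: the ATPases Rpt2 (-1.44 ± 0.13, SE) and Rpt5 (-1.61 ± 0.16, SE) and the lid subunits Rpn5 (-1.36 ± 0.19, SE) and Rpn7 (-1.56 ± 0.17, SE). Rpt2 read 1.26 to 1.52 early and -0.12 to 0.06 late. The 4 that did not pass, named after their values were seen, encode the core particle: Prosalpha1 (-0.30), Prosalpha5 (0.38), Prosalpha7 (0.40) and Prosbeta2 (0.03). Whether the subcomplexes differed was not tested.

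DNA replication genes changed in both directions, 5 higher and 8 lower of 17 tested (median -0.20). In all 5 scalings the 8 were lower and 2 were higher. Cdc45, part of the replicative helicase, stood at 2.87, 2.64, 2.87 and 2.42 early and 0.26, 0.17, 0.39 and 0.31 late (-2.35 ± 0.13, SE, adjusted p = 2.9e-06). The clamp loader subunit RfC4 fell by 2.08 ± 0.21 (SE) and the origin recognition subunit Orc4 by 1.89 ± 0.22 (SE). ago, an F-box protein that marks cyclin E for destruction, rose by 1.26 ± 0.14 (SE), from 0.60 to 0.96 early to 1.90 to 2.25 late. Mitosis and meiosis genes were split 6 higher and 6 lower of 20 (median 0.11), with all 6 of the lower and 0 of the higher called in all 5 scalings. Below mtrm and cort came dgt5, a subunit of the augmin complex of the spindle (-1.68 ± 0.13, SE), and nod, a meiotic chromosome motor (-1.67 ± 0.14, SE). dgt5 stood at 1.90 to 2.04 early and 0.12 to 0.44 late.

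Chromatin genes were at 6 higher and 5 lower of 21 (median 0.16), with 0 of the 6 and all 5 of the lower in all scalings. HisT entered this list by its symbol and is not one of the histone genes. The histone chaperone asf1 (-1.11 ± 0.17, SE) and the importin Pen (-1.32 ± 0.21, SE) fell, and the chromodomain remodeller kis (0.90 ± 0.15, SE) was higher, but not without centring. asf1 read 2.05 to 2.42 early and 0.97 to 1.52 late. Genes of mitochondrial respiration and the citric acid cycle were 3 higher and 3 lower of 9 (median -0.20). Idh, an NADP-dependent isocitrate dehydrogenase, stood at 1.62, 0.87, 0.85 and 0.44 early and -2.22, -1.95, -2.26 and -2.67 late (-3.14 ± 0.24, SE), and the complex I gene ND-51 fell by 1.91 ± 0.20 (SE). Ogdh, of the citric acid cycle, rose by 1.48 ± 0.19 (SE), with 1 late value missing, and ATPsynO (0.58 ± 0.17, SE) passed only after median centring and neither without the second 0-1 h array (adjusted p = 0.0571) nor without the second 0.5-1.5 h array (0.072).

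Most RNA decay and repression genes did not pass, with 3 higher, 2 lower and 9 neither of 14 (median 0.23). Imp, an RNA-binding protein with KH domains, fell by 1.80 ± 0.17 (SE), from -0.12 to 0.33 early to -1.87 to -1.44 late. The exosome nuclease Dis3 (0.70) and the deadenylase subunit PAN2 (0.67) were higher, but not without centring. Splicing and nuclear RNA genes were 5 higher and 2 lower of 7 (median 0.64). The cap-binding subunit Cbp80 was higher in all 5 scalings (1.20 ± 0.16, SE), with 2.42 to 2.48 on the 4 late arrays, whereas SF2 (0.98) and Hrb87F (0.90) did not pass without centring, and the poly(C)-binding mub fell by 1.19 ± 0.23 (SE). The 2 ribosomal protein genes with a probe, RpL28 (0.84) and RpLP1 (0.67), passed, but not without centring. Of 5 genes of secreted proteases, serpins and yolk breakdown, 4 were higher and 0 lower (median 1.25). Besides ImpL2, which is counted here too, the serpin Spn88Eb rose by 2.07 ± 0.21 (SE), from -2.11 to -1.26 early to 0.24 to 0.72 late. Maternal axis and signalling genes were 2 higher, 1 lower and 4 that did not pass of 7 (median 0.06). The Dpp family receptor sax fell by 0.89 ± 0.16 (SE) in all 5 scalings, while Stat92E (0.89) and Axn (0.79) were higher, but not without centring. zld, which encodes Zelda and was named for that role after its value was seen, did not pass (0.30, adjusted p = 0.0693).

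Muscle genes, of a tissue that forms later, were low relative to the reference in both windows. The median level of the muscle list was -4.18 to -3.85 on the early arrays and -3.54 to -2.97 on the late ones, and the median difference was 0.78, with 6 of 10 higher, 1 lower and 1 higher in all 5 scalings. The lower one was Strn-Mlck (-1.84), of which a second probe passed as higher (0.49, limma, adjusted p = 0.025). Troponin T (up) stood at -6.33 to -5.85 early and -5.43 to -4.81 late, and Zasp66, a Z-disc protein, was at -5.90 to -5.44 early and at -4.97, -4.47, -2.58 and -4.41 late, with the first 3-4 h array well above the other 3. Neuronal genes were 9 higher and 1 lower of 14 (median 0.60), where 44.6% of all tested probes were higher. In all 5 scalings 2 of the 14 were higher (12.9% of all tested probes), among them the neuronal RNA-binding protein elav, at -3.53 to -2.82 early and -2.14 to -1.38 late (1.29 ± 0.23, SE). Cuticle and chitin genes, with a median level of -3.77 to -2.95 early and -2.72 to -2.06 late, were 5 higher and 2 lower of 11 (median 0.52), and with quantile normalization their median was -0.29 and that of the muscle list -0.12. The chitin synthase kkv rose by 1.62 ± 0.26 (SE) and the chitinase Cht2 fell by 1.98 ± 0.14 (SE), from 0.68 to 0.98 to -1.35 to -0.94. The eggshell and yolk list and the fat body list had 0 members with a singly named probe. The part of these other tissues in the differences above was not tested.

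Few differences within a window passed the test, which set 2 arrays against 2. By limma, 0 of 7028 probes differed between 0.5-1.5 h and 0-1 h at an adjusted p under 0.05 (0%). An unadjusted p under 0.05 was found for 222, fewer than chance alone would give. The fit had a term for slide form but none for the slides that the early collections shared. The lack of calls therefore does not show that these collections were alike. The 2 late collections differed at 1 probe (0.0142%), with 1360 at an unadjusted p under 0.05. Leaving out the first or the second 3-4 h array raised that count to 177 or 704. The single probe, which carries no gene name, read 0.92 to 1.18 on the early arrays, -4.88 and -5.02 at 2.5-3.5 h and 0.68 and 1.18 at 3-4 h (5.96 ± 0.21, SE, adjusted p = 0.000136). It was low on the 2 arrays of 1 collection and between 0.68 and 1.18 on the 6 others. Of the probes that rose at least 2-fold between windows, 41.1% were higher at 0.5-1.5 h than at 0-1 h in both replicates, against 27.3% of all tested probes. Of those that fell, 41.2% were lower in both, against 21.7% of all. These shares come from the arrays that chose the probes and are given as a description.

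Collections that were not part of the comparison fell between and beyond the windows. For each array a position was computed per probe, with 0 at the mean of the 0-1.5 h arrays and 1 at the mean of the 2.5-4 h arrays of the same slide form, and its median was taken over the 1109 risen and over the 662 fallen probes. At 1-2 h the risen probes were at 0.28 and 0.09 on the 2 arrays and the fallen probes at 0.05 and 0.08. At 1.5-2.5 h they were at 0.40 and 0.38, and at 0.37 and 0.31. At 2-3 h the second array gave 0.57 for both. The first arrays of 2-3 h and of 4-5 h stood apart from the series, with no correlation above 0.666 with any array of another collection, and are left out of these sentences and marked in the plot. By 3.5-4.5 h the risen probes were at 0.96 and 1.13 and the fallen ones at 0.99 on both arrays. Each of these arrays shared a slide with a 3-4 h array of the comparison, and the second 2-3 h array shared one with a 2.5-3.5 h array. The risen probes stayed at 0.91 to 1.16 up to 5.5-6.5 h, whereas the fallen probes were at 0.82 and 0.84 at 4.5-5.5 h and at 0.76 on both arrays of 5.5-6.5 h.

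**Figure D4:**
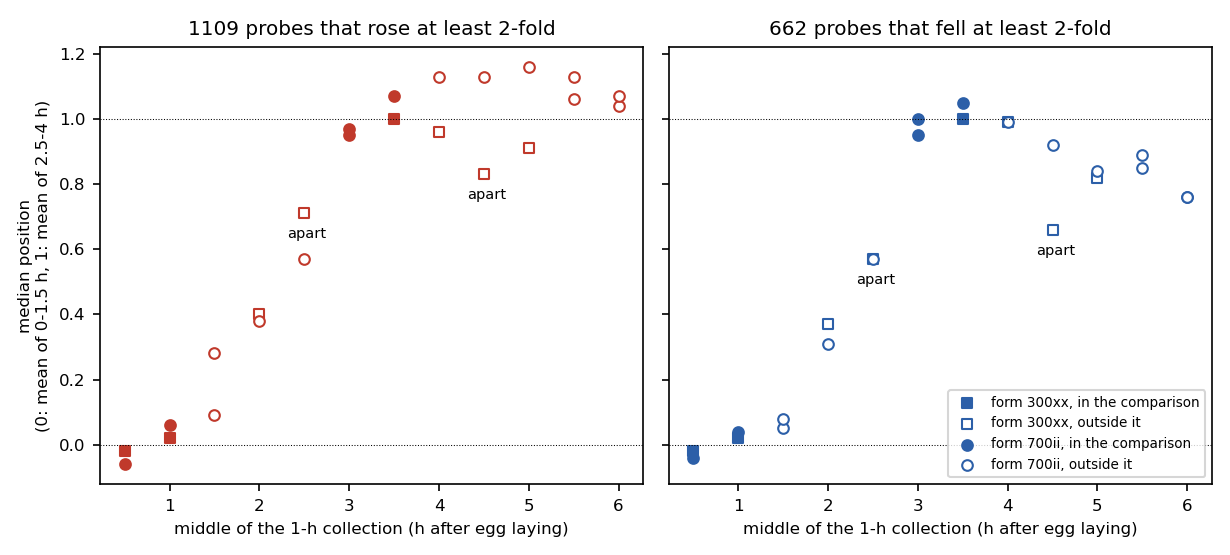
Median position of the 1109 risen (left, red) and 662 fallen probes (right, blue) on each array up to 6.5 h, against the middle of the 1-h collection in hours, with 0 at the 0-1.5 h mean and 1 at the 2.5-4 h mean. Squares are arrays of slide form 300xx, circles 700ii, filled symbols the 8 arrays of the comparison, and "apart" marks the first arrays of 2-3 h and 4-5 h. Fallen probes turn back to 0.76 by 5.5-6.5 h while risen probes stay near 1.

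The later embryo divided both classes. On the 8 arrays of 20-24 h, 350 of the 662 fallen probes were nearer to their 0-1.5 h mean than to their 2.5-4 h mean, at a median position of -0.18, and 312 were nearer to the late mean, at 1.19. HisT, at -5.41 ± 0.34 (SD, n = 4) at 5-6.5 h, stood at 2.10 ± 0.71 (SD, n = 8) at 20-24 h, above all its early values. JMJD7 (2.05 ± 0.57), Trx2 (1.26 ± 0.15) and Tspo (1.54 ± 0.27; all SD, n = 8) also ended above their early means of -0.64, 0.49 and 0.86, and Got2 (0.80 ± 0.36, SD, n = 8) close to its early mean of 1.01. By contrast mtrm was at -1.04 ± 0.70 (SD, n = 8), CNBP at -0.72 ± 0.45 and Jabba at -2.08 ± 0.54, below their 2.5-4 h means of -0.05, -0.05 and -0.60. The decline had begun at like positions for both, since at 1.5-2.5 h the median was 0.35 for the probes that later returned and 0.32 for those that did not. Among the risen probes, 445 were nearer to the 0-1.5 h mean at 20-24 h and 664 nearer to the late mean. Of the 1109 risen probes, 169 (15.2%) were already nearer to the 0-1.5 h mean at 5-6.5 h. Both window means come from the arrays that chose the probes, and the part of that choice in these counts was not tested. Of the arrays of 5-6.5 h, the first of 5.5-6.5 h had no correlation above 0.833 with any array of another collection. The others reached 0.941 to 0.964, and how far the count of 169 rests on that array was not tested. Elba3 was one of the 169, at -1.14 ± 0.42 (SD, n = 4) at 5-6.5 h and -3.06 ± 0.48 (SD, n = 8) at 20-24 h, both below its early mean of 0.91. Ama stayed high longer, at 2.73 ± 0.32 (SD, n = 4) at 5-6.5 h, and stood at -2.49 ± 0.25 (SD, n = 8) at 20-24 h, while CG13868 rose further, from -1.35 ± 0.32 (SD, n = 4) to 2.05 ± 0.61 (SD, n = 8).

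**Figure D5:**
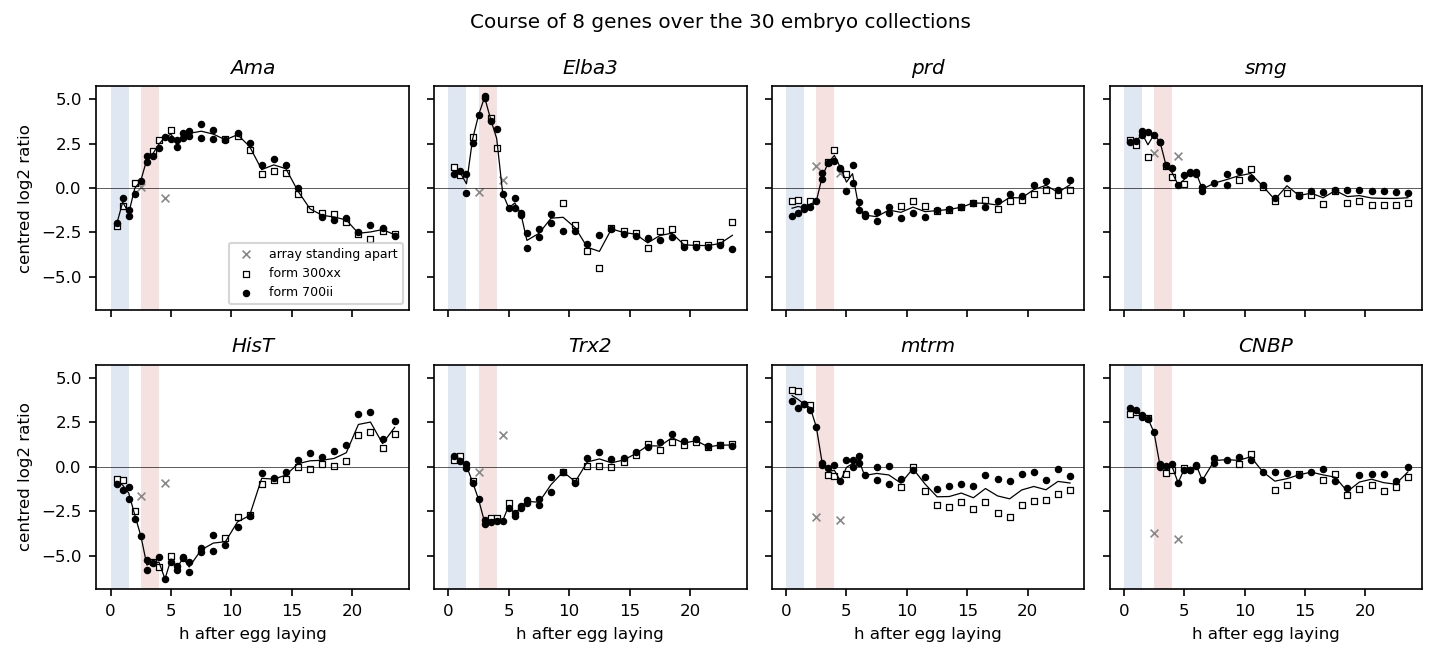
Centred log2 ratio of 8 genes on the arrays of the 30 embryo collections against time after egg laying in hours, with the 0-1.5 h window shaded blue and the 2.5-4 h window red. Open squares are arrays of slide form 300xx, filled circles 700ii, grey crosses the 2 arrays that stood apart, and the line joins the means of the other arrays. HisT and Trx2 return by 20-24 h (2.10 and 1.26), mtrm and CNBP do not (-1.04 and -0.72), and Elba3 peaks at 2.5-3.5 h.

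Adult levels of the same probes were described without a test. Levels on 16 arrays of wild-type females were set against 16 of wild-type males, with 2 arrays of each sex at 0-24 h and at 3, 5, 10, 15, 20, 25 and 30 d. Of the fallen probes 60.9% were higher in females (median difference 0.24) and of the risen probes 36.3% (median -0.36), against 46.7% of all tested probes (median -0.07). Of the 312 that stayed near the late mean at 20-24 h, 79.5% were higher in females, with a median difference of 0.67, and of the 350 that returned, 44.3%, with a median of -0.05. The risen probes differed by course too. Of the 445 that were back near the 0-1.5 h mean at 20-24 h, 68.5% were higher in females (median 0.39), more than among the fallen probes as a whole, and of the other 664, 14.8% (median -0.74). Of the wild-type female arrays, 4 entered a second comparison, with 4 arrays of females that the titles call tudor, after a gene of germ plasm and germ cell formation, at 0-24 h and 5 d like the wild-type ones, so both comparisons share those 4 arrays. There the medians were -0.71 for the fallen probes that stayed low, 79.8% of which were lower in tudor females, and 0.42 for those that returned, 30.9% of which were lower. For the risen probes back near the early mean and the others, they were -0.13 (54.6% lower) and 0.77 (11% lower). All tested probes had a median of 0.19, with 39.6% lower. The tudor arrays were all of the same slide form, whereas the wild-type female arrays set against them were of both forms. The part of slide form in the differences between tudor and wild-type females was not tested. For single genes, the difference of females minus males and that of tudor minus wild-type females were 4.11 and -3.52 for mtrm, 2.99 and -2.80 for CNBP, and 3.52 and -3.96 for Pxt. They were -0.81 and 2.64 for HisT, -0.67 and 2.14 for JMJD7, and 0.35 and 0.27 for Got2. For exu they were -0.52 and -4.0, so its level was not higher in females than in males. The titles do not say whether the tudor flies or their mothers lacked the gene.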

How the data were processed

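The authors deposited log2 ratios, sample over reference, of 12588 probes on 159 two-colour cDNA arrays, with poly(A)+ RNA per the labels' protocols and total RNA per the molecule label. The genome build, and any background correction and normalization before deposit, is not given in the sources used here. Values above 16, at an upper limit, were treated as missing, and each array was centred on its median. Probes with a value on at least 80% of the 8 arrays were tested with limma 3.58.1 in R 4.3.3 (data.table, version 1.17.8), with slide form as a term, 5 residual degrees of freedom, two-sided tests and Benjamini-Hochberg adjustment over all 7028 probes at a threshold of 0.05. The fit was tested on simulated data. Slide form 300xx or 700ii coincided with the scanner model. Gene names came from the platform annotation (4137 probes with 1 gene, 159 with several, 8292 with none), of which 4089 were updated through RefSeq.

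The comparison, lists and named genes were chosen with earlier results of these data known. Named genes were the 12 largest called changes of at least 2-fold in each direction, up to 4 called members of each list with the smallest adjusted p, and every tested member of the lists of early zygotic, cellularisation, cell cycle brake and germ plasm genes, with 1 probe per gene, the one with the most values. This gave 124 genes, of which 111 passed and 80 passed alike in all 5 scalings. Alternatives varied the scaling, missing-value filter, model terms, arrays and collections. Adult and later embryo arrays were described without a test. Promoter, protein and probe sequences were not analysed here.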

Additional observations from a re-analysis of the deposited data

Results flagged for a closer look

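In 245 groups of 4 arrays of 1 window, an array was marked where its gap to the nearest other array exceeded Dixon's critical value of 0.829 of the group's range, which chance gives in about 1 in 20 groups. This marked 8 values, in log2 ratio. Lapsyn read -2.58 on the second 0.5-1.5 h array, above the -3.55 to -3.40 of the other early arrays. On the second 0-1 h array trn read -3.16, below the -2.60 to -2.49 of the others. The first 0-1 h array was low for nrv2 (-5.62 against -4.80 to -4.73) and for tkv (-1.51 against -1.07 to -1.02). The scaffold gene dlg1 read 0.15 on the second 0.5-1.5 h array against 0.21 to 0.22. On the first 0.5-1.5 h array Imp was low (-0.12 against 0.28 to 0.33) and ND-51 high (0.75 against 0.49 to 0.52). The cuticle gene Cpr72Ec read -2.90 on the second 3-4 h array, below the -2.42 to -2.41 of the other late arrays.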

How the results depend on the processing

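The split between higher and lower probes moved with the scaling. Without centring 992 probes were higher and 2013 lower, and with 2 centrings chosen after seeing the data, on the array mean and on the median deviation from the probe means, 1973 and 1679 were higher. Without centring 3 probes differed between 3-4 h and 2.5-3.5 h, and leaving out 1 array gave 1 to 704. The 3-4 h against 0-1 h arrays alone gave 2597 changed and 1669 higher probes, whereas the equally small set of 2.5-3.5 h against 0.5-1.5 h gave 4320 and 3050, and the cause was not tested. Leaving out 1 array in turn gave 3752 to 4464 changed probes, the 700ii arrays alone 4434 and the 300xx arrays alone 3098. Same-numbered arrays of the 2 early collections share a slide, and their replicate differences correlated at 0.598. The other 5 correlations between collections ran from -0.056 to 0.111, so the numbers were not taken to pair arrays across windows, and a replicate block left 4088 probes changed. Without centring the differences of peb (-0.055), dlg1 (-0.178) and Hrb27C (-0.099) and the median of the cellularisation list (-0.198) turned negative. With centring on the median deviation dlg1 (-0.024) and the cellularisation list (-0.044) did so too, and with quantile normalization Prm (-0.03), the muscle list (-0.122) and the cuticle list (-0.291). The chromatin list median was -0.328, -0.207, -0.109 and -0.175, and the RNA decay list median -0.258, -0.051, -0.038 and -0.104, without centring, with quantile normalization, with mean centring and with the median deviation. The mitochondrial list median was 0.118 in the 2.5-3.5 h against 0.5-1.5 h arrays alone, and the cause was not tested. Relative to median centring, the other scalings moved the median of all probes by -0.48 to -0.26. Of the 111 named genes that passed, 70 kept direction and call in all 24 alternatives.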

Other observations

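Of the 12588 probes, 3464 had no value on any of the 8 arrays and 6547 had one on all 8. Values were present for 4 probes on at least 3 late arrays and no early array, and for 3 probes in the opposite pattern. Slide form was a larger divide, since 645 probes had values on all 5 of the 700ii arrays and on none of the 300xx arrays, and 592 on all 3 of the 300xx arrays alone.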
